A study of Mus musculus with 6 samples.

Results

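The genes described here handle lipid in macrophages and related myeloid cells: the scavenger receptors Cd36 and Msr1, the lipase Lpl, the sterol-sensing nuclear receptor Nr1h3 (LXRα), the cholesterol exporters Abca1 and Abcg1, the lipid carriers Apoe and Pltp, the lipid-sensing receptor Trem2 and the lysosome-linked glycoprotein Gpnmb. They were chosen by name, with earlier results of these data known, and all 10 were found among the probes of the array. They were measured by 13 probes on 22 spots, of 39429 probes in all, and every member stood among the 22097 genes tested after the filter on dim probes. RNA came from M-MDSCs (myeloid-derived suppressor cells of the monocytic kind, which are immature and restrain T cells), sorted by flow cytometry from bone marrow or lung of C57BL/6 mice. Mock mice were 6 to 8 weeks old and received the vehicle, and each mock RNA came from 1 to 2 mice. Treated mice received azacytidine, an inhibitor of DNA methyltransferases, plus entinostat, which blocks class I histone deacetylases, and each treated RNA was pooled from 3 to 6 mice. Each tissue had 3 arrays, and each array carried a mock RNA in the green dye Cy3 and a treated RNA of the same tissue in the red dye Cy5.

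Macrophages take up modified lipoproteins through scavenger receptors and take up fatty acids that Lpl releases from triglyceride-rich lipoproteins. The cholesterol they load is oxidised to oxysterols, which switch on LXR, a nuclear receptor that works as a pair with RXR and raises transcription of Abca1, Abcg1, Apoe, Pltp and Lpl. Abca1 hands cholesterol to lipid-poor apolipoproteins, Abcg1 hands it to high-density lipoprotein, and alveolar macrophages depend on this route because they clear surfactant lipid.

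Treated cells of the lung had higher levels of 9 of the 10 genes, by 1.73-fold to 4.51-fold, where 20% of all genes tested were called higher. In bone marrow 1 of the 10, Lpl, passed the test, which is near the 14.4% of all genes called there. Nr1h3, which encodes the sensor itself, passed in neither tissue. The ratio of treated to mock cells was higher in lung than in bone marrow for Apoe, Abca1, Abcg1, Pltp, Cd36, Msr1 and Trem2, and did not pass that test for Lpl, Gpnmb and Nr1h3. Of all genes tested, 9.78% had a higher ratio in lung by that test. Of the 10 genes, 8 had higher levels in mock lung than in mock bone marrow, all but Apoe and Trem2. In that comparison 66% of all genes tested were called, 29.6% of them all being higher in lung. These are bulk samples, so fewer cells of a type and less RNA per cell cannot be told apart.

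Upstream sequence is shown for Abca1 and Cd36, the member with the most and the member with the fewest CpG dinucleotides among the 7 members with an entry in RefSeq's table of promoters, because azacytidine acts on the methylation of CpG, which was not measured here, and both genes were higher in treated lung. The windows hold the 250 bases before the annotated start on genome build GRCm38.p6, 5′ to 3′ on the gene's strand, with CpG in capitals. That of Abca1 is chr4:53159896-53160145, minus strand, with 20 CpG, and that of Cd36 is chr5:17835897-17836146, minus strand, with 3.
Abca1: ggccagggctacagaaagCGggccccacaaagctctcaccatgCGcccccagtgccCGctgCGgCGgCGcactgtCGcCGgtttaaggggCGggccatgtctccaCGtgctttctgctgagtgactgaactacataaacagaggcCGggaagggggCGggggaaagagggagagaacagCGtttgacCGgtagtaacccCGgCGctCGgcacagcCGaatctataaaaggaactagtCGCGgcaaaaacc
Cd36: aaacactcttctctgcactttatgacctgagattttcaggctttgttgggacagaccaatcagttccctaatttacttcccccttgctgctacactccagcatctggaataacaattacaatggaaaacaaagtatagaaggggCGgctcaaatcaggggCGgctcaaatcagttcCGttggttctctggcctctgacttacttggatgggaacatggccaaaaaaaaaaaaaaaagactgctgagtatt

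Values are log2 ratios of treated over mock, so that 1 is a doubling and a positive value is higher in treated cells. The direction was taken from the dyes in the labels. The column headings of the authors' deposited matrices name the ratio the other way round, although their numbers equal Cy5 over Cy3. Were the dyes the other way round, every sign of the treated and mock comparisons would turn, so that the 9 genes called in lung would be lower in treated cells and Apoe would be at -2.17 there, while the comparison of the mock channels would become one of treated cells. The test was limma's moderated test over all 22097 genes, with a gene called at a Benjamini-Hochberg adjusted p below 0.05, and errors are standard deviations (SD) between the 3 arrays of a tissue. Nothing in the labels shows that the RNA pools of a group share no mice, so the p-values measure the spread between these RNA pools. All arrays carry the dyes the same way round, and a dye effect and a treatment effect cannot be told apart. The arrays of each tissue were on their own slide with their own scan, and slide and tissue likewise cannot be told apart. Of all genes, 14.4% were called in treated bone marrow (7.25% higher, 7.14% lower) and 34% in treated lung (20% higher, 14% lower). The ratio differed between tissues for 15.2% of all genes (9.78% higher in lung, 5.46% lower). The 10 genes had 1 call higher and none lower in bone marrow, 9 calls higher in lung, and 7 calls with a higher ratio in lung than in bone marrow. Their median log2 ratio was -0.06 in bone marrow and 1.02 in lung, against 0.024 and 0.014 over all genes tested.

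**Figure D1:**
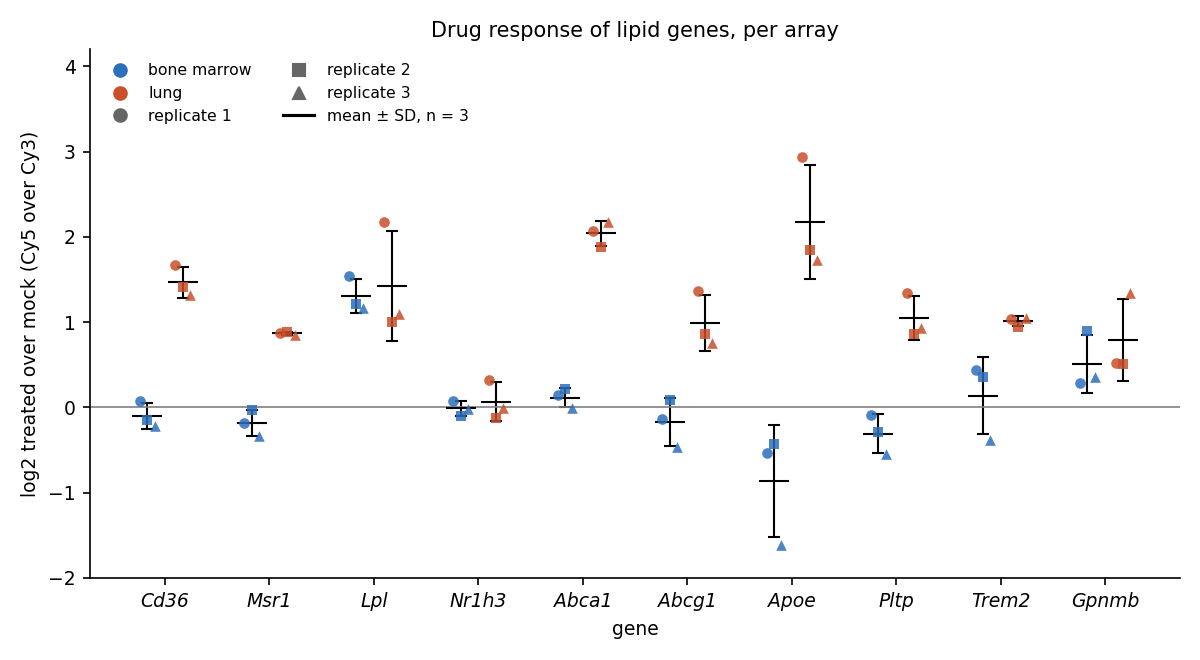
Log2 ratio of treated over mock (vertical axis) on each array for the 10 genes, in bone marrow (blue) and lung (red), with the replicate shown by the symbol and the mean ± SD of 3 arrays by the bars. The lung arrays lie above all bone marrow arrays for Cd36, Msr1, Abca1, Abcg1, Apoe, Pltp and Trem2, and overlap with them for Lpl, Nr1h3 and Gpnmb. The share of all genes whose arrays separate like this was not counted.

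Among the uptake genes, Cd36, a receptor for long-chain fatty acids and oxidised low-density lipoprotein, had log2 ratios of 1.67, 1.41 and 1.32 on the 3 lung arrays and of 0.07, -0.15 and -0.22 on the 3 bone marrow arrays. The lung arrays were all high and the bone marrow arrays lay around 0, with no overlap. In lung Cd36 rose 2.77-fold (log2 1.47 ± 0.18, SD, n = 3, adjusted p = 7.35e-05). In bone marrow its mean was -0.10 ± 0.15 (adjusted p = 0.472), and the tissues differed by 1.57 (adjusted p = 0.000807). The probe was well above background on 2 of 3 mock bone marrow arrays, so the bone marrow ratio was measured close to the floor of the array.

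Msr1, the class A scavenger receptor for modified lipoproteins, had log2 ratios of 0.87, 0.88 and 0.85 in lung and of -0.18, -0.03 and -0.34 in bone marrow. The lung arrays were nearly identical. Msr1 rose 1.82-fold in lung (log2 0.87 ± 0.02, adjusted p = 0.00021), against -0.18 ± 0.16 in bone marrow (adjusted p = 0.121), with a difference of 1.05 (adjusted p = 0.00153). Its second probe, chr8:40709296-40709355 on mm9, gave 0.57 ± 0.12 in lung (adjusted p over probes = 0.0159) and -0.31 ± 0.41 in bone marrow.

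Lpl, which frees fatty acids from triglyceride-rich lipoproteins, was the member called in both tissues. Its log2 ratios were 1.54, 1.21 and 1.17 in bone marrow and 2.17, 1.00 and 1.10 in lung, so both tissues were high on every array and overlapped. Lpl rose 2.48-fold in bone marrow (log2 1.31 ± 0.20, adjusted p = 0.00993) and 2.68-fold in lung (log2 1.42 ± 0.65, adjusted p = 0.00209). The tissues differed by 0.11 with a standard error (SE) of 0.297 (adjusted p = 0.817). The call in bone marrow was lost when its replicate 1 (1.19, adjusted p = 0.0547) or its replicate 2 (1.36, adjusted p = 0.0544) was left out and with median centring in place of loess (1.77, adjusted p = 0.266). The call in lung was lost with scaling between arrays (1.28, adjusted p = 0.0526). A second probe lies 5′ of the one used, at chr8:71425050-71425109 of mm9, plus strand, and is printed because it measures the same change a second time in both tissues.
Lpl second probe: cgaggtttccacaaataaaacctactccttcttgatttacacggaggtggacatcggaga
It had log2 ratios of 0.73, 0.56 and 0.85 in bone marrow (0.71 ± 0.14, adjusted p over probes = 0.0149) and of 1.35, 0.67 and 0.75 in lung (0.92 ± 0.37, adjusted p over probes = 0.00159). It was higher on all arrays, as was the first probe.

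The sensor Nr1h3 had log2 ratios of 0.08, -0.10 and -0.02 in bone marrow and of 0.32, -0.12 and -0.01 in lung. Both sets of arrays straddled 0. The means were -0.02 ± 0.09 (SE 0.0915, adjusted p = 0.931) and 0.07 ± 0.23 (adjusted p = 0.628), with a difference of 0.08 (SE 0.129, adjusted p = 0.697). A second probe, next to the first, gave 0.04 ± 0.09 and 0.05 ± 0.23. The sign of these near-zero means turned under several scalings of the arrays, and none of them passed.

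Of the LXR targets that export cholesterol, Abca1 had log2 ratios of 2.07, 1.88 and 2.17 in lung and of 0.14, 0.21 and -0.01 in bone marrow. It rose 4.11-fold in lung (log2 2.04 ± 0.15, adjusted p = 1.39e-05), and its tissue difference was 1.92 (adjusted p = 0.000235). In bone marrow the probe was well above background on 0 of 3 mock and 1 of 3 treated arrays, so no fold can be given there, and the tissue difference rests on a bone marrow ratio at the floor of the array. The tissue difference did not pass with the processed signals of the scanner software (1.38, adjusted p = 0.0879).

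Abcg1 had log2 ratios of 1.36, 0.86 and 0.75 in lung and of -0.14, 0.09 and -0.47 in bone marrow, again with no overlap. It rose 1.99-fold in lung (log2 0.99 ± 0.33, adjusted p = 0.00166). The mean in bone marrow was -0.17 ± 0.28 (adjusted p = 0.427), and the difference was 1.16 (adjusted p = 0.00963). The lung call ended with median centring in place of loess (1.23, adjusted p = 0.0509).

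Apoe, the apolipoprotein that macrophages secrete to carry exported lipid, had a mean ratio close to that of Abca1 in lung and the lowest of the 10 in bone marrow under all alternatives run. Its probe was spotted 10 times per array, at chr7:20281732-20281791 of mm9, minus strand, and is printed because this gene differs most between the tissues.
Apoe probe: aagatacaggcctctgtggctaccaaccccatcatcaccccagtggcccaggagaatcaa
Its log2 ratios were 2.94, 1.84 and 1.73 in lung and -0.54, -0.43 and -1.62 in bone marrow. All lung arrays were above 0 and all bone marrow arrays below it. Apoe rose 4.51-fold in lung (log2 2.17 ± 0.67, adjusted p = 0.00126). Without lung replicate 1 it was at 1.79, against 2.02 for Abca1. The mean of -0.86 ± 0.65 in bone marrow did not pass (adjusted p = 0.0792), though it did with scaling between arrays (-0.90, adjusted p = 0.044) and without lung replicate 1 (-0.86, adjusted p = 0.0335). Without bone marrow replicate 3 the mean was -0.49. The tissues differed by 3.04 (adjusted p = 0.00432).

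Pltp, the phospholipid transfer protein that remodels high-density lipoprotein, had log2 ratios of 1.34, 0.86 and 0.93 in lung and of -0.09, -0.29 and -0.55 in bone marrow. The bone marrow arrays were all slightly below 0. It rose 2.06-fold in lung (log2 1.04 ± 0.26, adjusted p = 0.000668), against -0.31 ± 0.23 in bone marrow (adjusted p = 0.108), and the difference was 1.35 (adjusted p = 0.00301).

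Trem2, a receptor that binds lipids and apolipoproteins and signals through the adaptor Tyrobp, had log2 ratios of 1.04, 0.94 and 1.05 in lung and of 0.44, 0.35 and -0.38 in bone marrow. The lung arrays were close to each other and the bone marrow arrays were split in sign. It rose 2.02-fold in lung (log2 1.01 ± 0.06, adjusted p = 0.00187), with 0.13 ± 0.45 in bone marrow (adjusted p = 0.561). Without bone marrow replicate 3 the bone marrow mean was 0.39 and passed (adjusted p = 0.0341), and without bone marrow replicate 1 it was -0.02. The tissue difference of 0.88 passed narrowly (adjusted p = 0.0298). It did not pass without bone marrow replicate 2 (adjusted p = 0.0611), without lung replicate 1, 2 or 3 (adjusted p = 0.0595, 0.0671 and 0.0647), with processed signals (adjusted p = 0.0649) or with scaling between arrays (adjusted p = 0.154).

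Gpnmb, a glycoprotein of lipid-laden and phagocytic macrophages, had log2 ratios of 0.52, 0.51 and 1.34 in lung and of 0.28, 0.90 and 0.35 in bone marrow. All 6 arrays were above 0 and the tissues overlapped. It rose 1.73-fold in lung (log2 0.79 ± 0.48, adjusted p = 0.0134). The bone marrow mean was 0.51 ± 0.34 (adjusted p = 0.0984), and the tissue difference 0.28 (SE 0.258, adjusted p = 0.475). With the processed signals of the scanner software the 2 tissues changed places: bone marrow was 1.62 (adjusted p = 0.023), lung was 0.77 (adjusted p = 0.173) and the difference was -0.85. The bone marrow mean also passed with the background taken from negative control spots (0.70, adjusted p = 0.028), when bone marrow was fitted alone (0.51, adjusted p = 0.0478) and without lung replicate 3 (0.51, adjusted p = 0.0395), and the lung call ended with median centring (1.00, adjusted p = 0.106). The lung mean was between 0.52 and 0.93 when 1 lung array was left out and passed each time. The probe was well above background on 2 of 3 mock bone marrow arrays.

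With median centring in place of loess, 1 member (Abca1) kept a tissue difference that passed, against 7 with loess, and 7 of the 10 genes passed in lung. Under that centring the median ratio of all genes moved to 0.201 in bone marrow and 0.122 in lung. Of the genes that passed in lung, 92.4% were then higher, against 58.7% with loess, and of those whose response differed between tissues 84.8% had the higher ratio in lung, against 64.2% with loess. That share was 75.4% without bone marrow replicate 2.

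**Figure D2:**
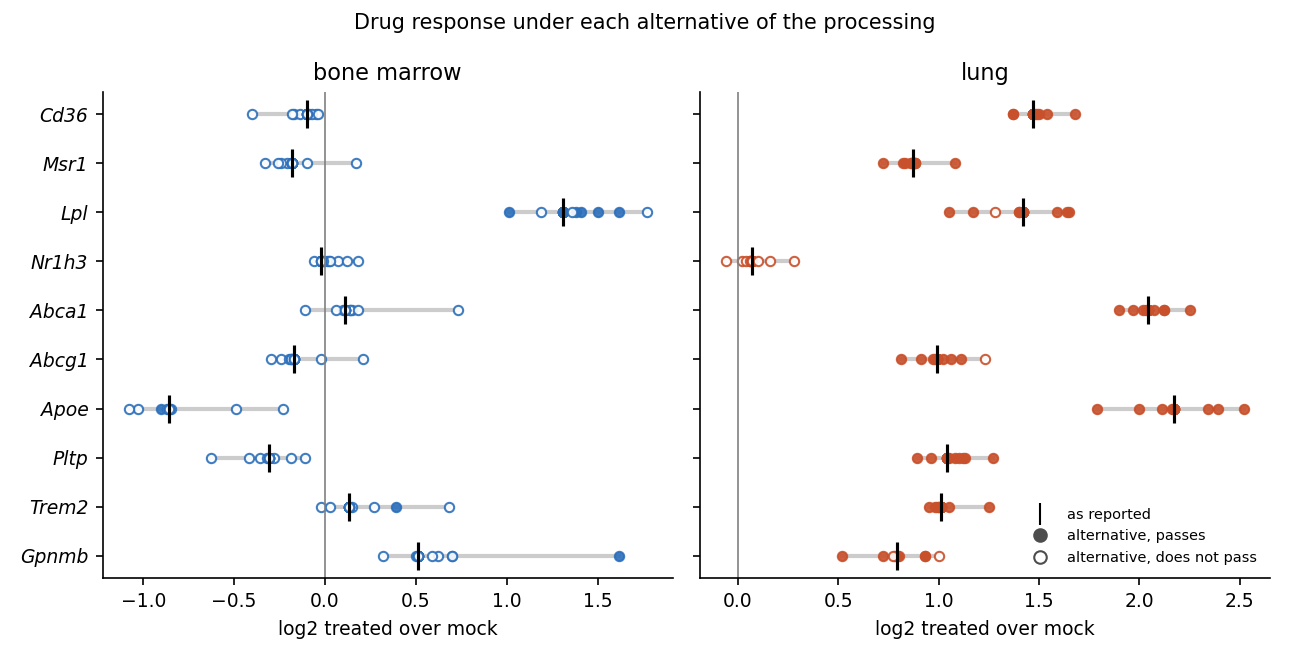
Mean log2 ratio of treated over mock (horizontal axis) for each gene in bone marrow (left) and lung (right) as reported (black bar) and under each alternative of the processing (points, filled where the adjusted p was below 0.05). Nr1h3 straddled 0 in both tissues and passed nowhere, and the other 9 genes stayed above 0 in lung under all alternatives drawn.

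The arrays of a tissue were not alike for these genes. The median ratio of the 10 genes was 1.35, 0.91 and 1.07 on lung replicates 1, 2 and 3, and 6 of the 10 genes were highest on replicate 1, where 37.5% of all genes were. In bone marrow it was 0.08, 0.03 and -0.28, and 8 of the 10 genes were lowest on replicate 3, where 34% of all genes were. All 9 genes called in lung passed whichever array was left out.

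Levels in mock cells were compared between tissues on the Cy3 channel, as log2 intensity per probe. First the distribution of the spots' mean log2 intensity over both dyes was made equal across arrays (Aquantile). The Cy3 level was taken from that mean and the log2 ratio, so it also draws on the treated channel. Of all genes, 66% were called (29.6% higher and 36.3% lower in mock lung), and 8 of the 10 lipid genes were called higher and none lower, with a median difference of 1.99 against -0.038 over all genes. Nr1h3, called in neither tissue for the drugs, differed between mock tissues: its levels were 7.36, 7.54 and 7.40 in bone marrow and 10.79, 10.69 and 11.03 in lung, a 10.6-fold higher level in lung (log2 3.41, adjusted p = 1.9e-07). Levels of Cd36 were 6.86, 6.99 and 7.08 in bone marrow and 9.56, 9.83 and 9.91 in lung, a 6.92-fold difference (log2 2.79, adjusted p = 5.64e-07). Abca1 was at 6.63, 6.49 and 6.62 in bone marrow, not well above background on any of the 3 arrays, and at 8.95, 8.89 and 9.09 in lung, at least 5.22-fold higher (fitted log2 2.39, adjusted p = 3.02e-07). This bound sets the lung mean against, per array, the higher of the probe's own value and the lowest level among probes well above background. For all 8 genes called, every mock lung array lay above every mock bone marrow array. These 8 genes had been called on the same arrays, and how many of all genes separate in this way was not counted.

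Abcg1 was at 9.32 ± 0.16 in mock bone marrow and 11.75 ± 0.18 in mock lung (5.37-fold, adjusted p = 1.67e-06), and Gpnmb at 7.21 ± 0.23 and 9.74 ± 0.34 (5.78-fold, adjusted p = 1.08e-05). Lpl was at 9.65 ± 0.25 and 11.24 ± 0.28 (3.02-fold, adjusted p = 8.85e-05). Msr1 was at 8.67 ± 0.04 and 9.60 ± 0.04 (1.91-fold, adjusted p = 1.08e-05). The carriers were nearer to each other across tissues. Pltp was at 8.01 ± 0.08 and 8.49 ± 0.27 (1.4-fold, adjusted p = 0.012), a call that ended when the arrays were centred on their 75th percentile (0.30, adjusted p = 0.0903). Apoe was at 13.81, 13.64 and 13.98 in bone marrow and at 13.74, 14.32 and 14.41 in lung, with overlapping arrays (log2 0.35, adjusted p = 0.115). It passed without lung replicate 1 (0.56, adjusted p = 0.00226), with the processed signals (0.80, adjusted p = 0.0403) and with 75th percentile centring (1.11, adjusted p = 0.000176). Trem2 was at 11.67, 11.75 and 12.05 in bone marrow and at 11.85, 11.77 and 11.74 in lung (log2 -0.03, adjusted p = 0.789), although with 75th percentile centring it was 0.56 higher in lung (adjusted p = 0.00329). That centring moved the median of all genes to -0.453, and 30.7% of the genes that passed were then higher in lung, against 44.9% before.

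Across the 4 kinds of RNA the order of levels was shared by many members. Treated lung was highest for Cd36 (11.24 ± 0.01), Msr1 (10.47 ± 0.03), Lpl (12.67 ± 0.42), Abca1 (11.01 ± 0.24), Abcg1 (12.74 ± 0.15), Apoe (16.33 ± 0.31), Pltp (9.53 ± 0.21), Trem2 (12.80 ± 0.09) and Gpnmb (10.53 ± 0.40). These levels of treated RNA come from the other dye and carry any difference between dyes. For Cd36, Msr1, Abca1, Abcg1 and Pltp mock lung came next, followed by mock and treated bone marrow, whose arrays overlapped for each of these 5 genes. Treated bone marrow was at 10.96 ± 0.06 for Lpl, just below mock lung at 11.24 ± 0.28, with overlapping arrays. For Gpnmb the arrays of treated and mock lung overlapped too. For Nr1h3 the 2 lung groups (10.84 ± 0.17 in mock and 10.90 ± 0.29 in treated) and the 2 bone marrow groups (7.43 ± 0.10 and 7.42 ± 0.04) each lay within their spread. For Trem2, mock lung (11.79 ± 0.06), mock bone marrow (11.82 ± 0.20) and treated bone marrow (11.96 ± 0.25) did not differ beyond their spread. Apoe was lowest in treated bone marrow (12.94 ± 0.50).

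**Figure D3:**
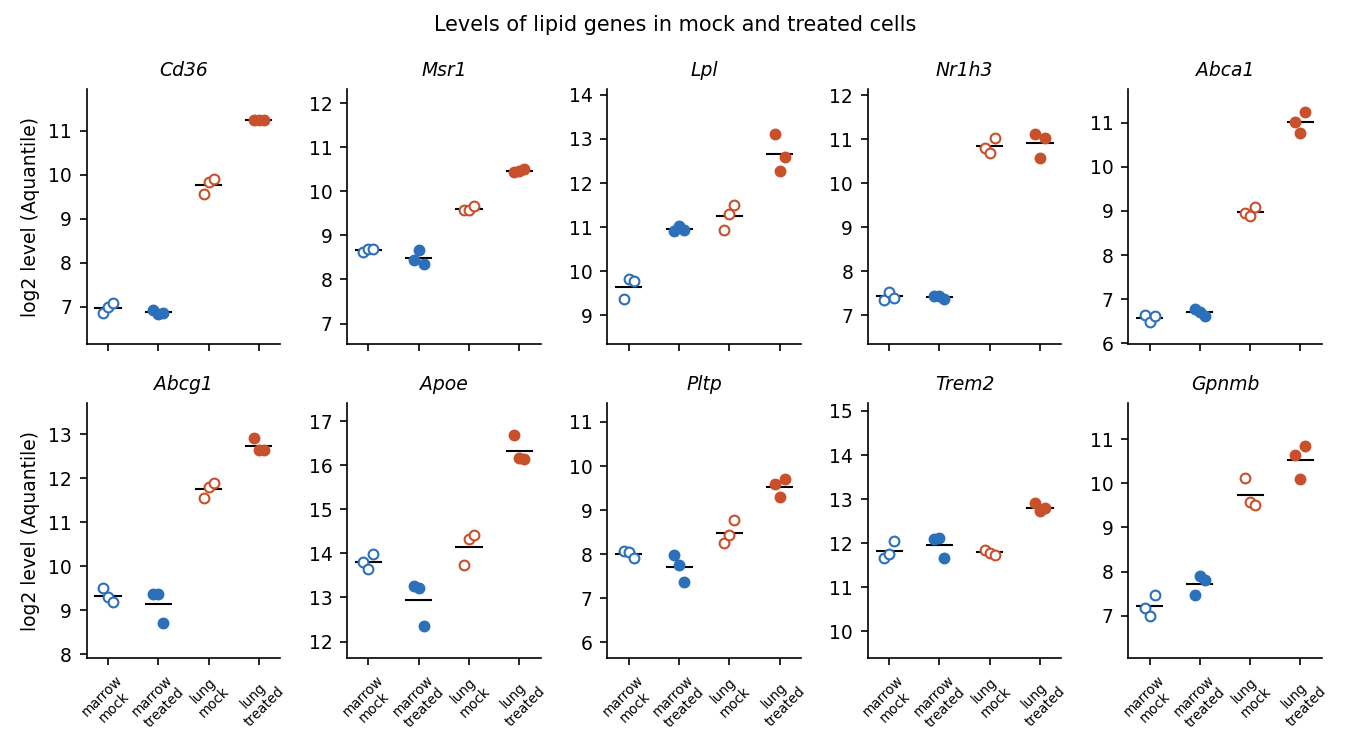
Log2 level of each gene (vertical axis) on each array in mock (open) and treated (filled) cells of bone marrow (blue) and lung (red). Bars mark the mean of 3 arrays. The distribution of the spots' mean intensity over both dyes was first made equal across arrays. All panels span the same number of log2 units, and levels of different genes cannot be compared. Nr1h3 separates by tissue alone, Lpl steps up with both tissue and treatment, and Apoe is similar in both mock groups and highest in treated lung.

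Other genes of the same pathways were taken from 4 lists that hold no member. Of all genes, 20% were called higher and 14% lower in treated lung, and 7.25% and 7.14% in treated bone marrow. The ratio was called higher in lung than in bone marrow for 9.78% and lower for 5.46%. In mock lung 29.6% were higher and 36.3% lower than in mock bone marrow. Some list counts lie near these shares, and no list was tested as a set. Of 13 other receptors for lipoproteins and modified lipid, 6 rose and 3 fell in treated lung (median log2 0.20) and none rose and 2 fell in treated bone marrow (median -0.09). Cxcl16, which in its membrane form binds oxidised low-density lipoprotein, rose in lung by a log2 ratio of 1.94 ± 0.14 (adjusted p = 6.04e-05), Stab1, a scavenger receptor of tissue macrophages, by 1.95 ± 0.47 (adjusted p = 0.000198) and Olr1, a receptor for oxidised low-density lipoprotein, by 1.77 ± 0.60 (adjusted p = 0.000558). Scarb1, the receptor for high-density lipoprotein, fell in both tissues (lung -0.59 ± 0.03, bone marrow -0.41 ± 0.12), though the bone marrow value was 0.09 with median centring. Lrp1, a large endocytic receptor that takes up Apoe-bearing lipoprotein, fell in bone marrow (-1.01 ± 0.36, adjusted p = 0.00418) and was 0.11 ± 0.14 in lung, a difference of 1.13 (adjusted p = 0.00761). The ratio was higher in lung than in bone marrow for 7 of the 13 receptors, Lrp1 included through its fall in bone marrow, and was called lower for none. In mock cells 10 of the 13 were higher in lung and 1 was lower, with Marco, the receptor typical of alveolar macrophages, at 5.86 on the log2 scale, Stab1 at 3.78 and Cxcl16 at 1.98.

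Of 17 other genes of the LXR pathway, 6 rose and 1 fell in treated lung, with a median of -0.01. Mylip, the LXR target that degrades the low-density lipoprotein receptor, rose by 1.03 ± 0.16 (adjusted p = 0.000444), the desaturase Scd2 by 1.16 ± 0.24 (adjusted p = 0.000549) and the phospholipid-remodelling enzyme Lpcat3 by 0.55 ± 0.22 (adjusted p = 0.00254). Srebf1, the LXR target that drives fatty acid synthesis, was at -0.03 ± 0.09 in lung (adjusted p = 0.792). In bone marrow 1 gene of the list rose and 3 fell (median -0.19): Scd2 rose by 1.14 ± 0.29, and the LXR partners Rxra (-0.66 ± 0.16, adjusted p = 0.00497) and Rxrb (-0.36 ± 0.10, adjusted p = 0.0167) were among those that fell. The ratio was higher in lung than in bone marrow for 4 of the 17 genes, among them Mylip and Pparg, which rose in lung, and Rxra, which fell in bone marrow. In mock cells 8 were higher and 7 lower in lung, among them Rxra at -2.32, Pparg at 1.86 and Scd1 at 1.65. Rxrb and Srebf1 were singled out here after their values were seen.

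Of 14 genes tied to Trem2 signalling or to lipid-associated macrophages, 9 rose and 1 fell in lung (median 0.71), and 5 rose and 3 fell in bone marrow (median -0.07). Spp1, which encodes osteopontin, rose in lung by 1.85 ± 0.25 (adjusted p = 4.82e-05) and in bone marrow by 1.07 ± 0.10 (adjusted p = 0.00171). The tetraspanin Cd9 rose in lung by 1.66 ± 0.18 (adjusted p = 7.49e-05) and in bone marrow by 0.71 ± 0.22 (adjusted p = 0.00646). The fatty acid binding protein Fabp5 rose in bone marrow by 0.67 ± 0.24 (adjusted p = 0.0115) and in lung by 0.77 ± 0.22 (adjusted p = 0.00191). Cd63, a lysosomal tetraspanin, rose in lung by 1.24 ± 0.34 (adjusted p = 0.00155) and was -0.54 ± 0.42 in bone marrow (adjusted p = 0.0696). Of the signalling partners of Trem2, Tyrobp was -0.19 ± 0.07 in lung (adjusted p = 0.242) and fell by 0.54 on the log2 scale in bone marrow, and Plcg2 fell in both tissues (-0.50 ± 0.08 and -0.54 ± 0.28). These 2 genes were singled out after their values were seen. For 7 of the 14 genes the ratio was higher in lung than in bone marrow, counting Syk, which was called lower in bone marrow and not called in lung. In mock cells 8 were higher in lung and 5 lower, with Fabp4 at 2.74, Cd9 at 2.11 and Tfec at -1.40.

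Of 20 genes for lipid storage, hydrolysis, oxidation and cholesterol traffic, 8 rose and 3 fell in lung (median 0.16), and 3 rose and 5 fell in bone marrow (median -0.07). Ch25h, which makes the oxysterol 25-hydroxycholesterol, rose in lung by 2.05 ± 0.12 (adjusted p = 6.96e-06) and was -0.12 ± 0.04 in bone marrow, a difference of 2.17 (adjusted p = 7.78e-05). Its mock bone marrow level of 6.5 was near that of Abca1 (6.58), so its bone marrow ratio was also measured close to the floor of the array. Around Lpl, its endothelial anchor Gpihbp1 rose in lung by 1.08 ± 0.10 (adjusted p = 7.35e-05), and its inhibitor Angptl4 rose in bone marrow by 1.61 ± 0.33 (adjusted p = 0.00233) and in lung by 0.94 ± 0.37 (adjusted p = 0.00349). Its folding factor Lmf1 fell in both tissues (bone marrow -0.80 ± 0.19, lung -0.48 ± 0.19). Dgat1, the enzyme of triglyceride synthesis, rose in lung by 0.97 ± 0.20 (adjusted p = 0.000292) and in bone marrow by 0.56 ± 0.12 (adjusted p = 0.0089). Stard3, which encodes a cholesterol-binding protein of late endosomes, fell in both tissues (bone marrow -0.78 ± 0.01, lung -0.58 ± 0.05). For 5 of the 20 genes the ratio was higher in lung than in bone marrow, and for 1, Soat1, it was lower, with a fall in lung (-0.42 ± 0.10) and 0.12 ± 0.08 in bone marrow. Syk and Soat1 are named after their values were seen. In mock cells 11 were higher in lung and 6 lower, with Ch25h at 2.24, the lysosomal lipase gene Lipa at 1.67 and Dgat1 at -1.42.

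**Figure D4:**
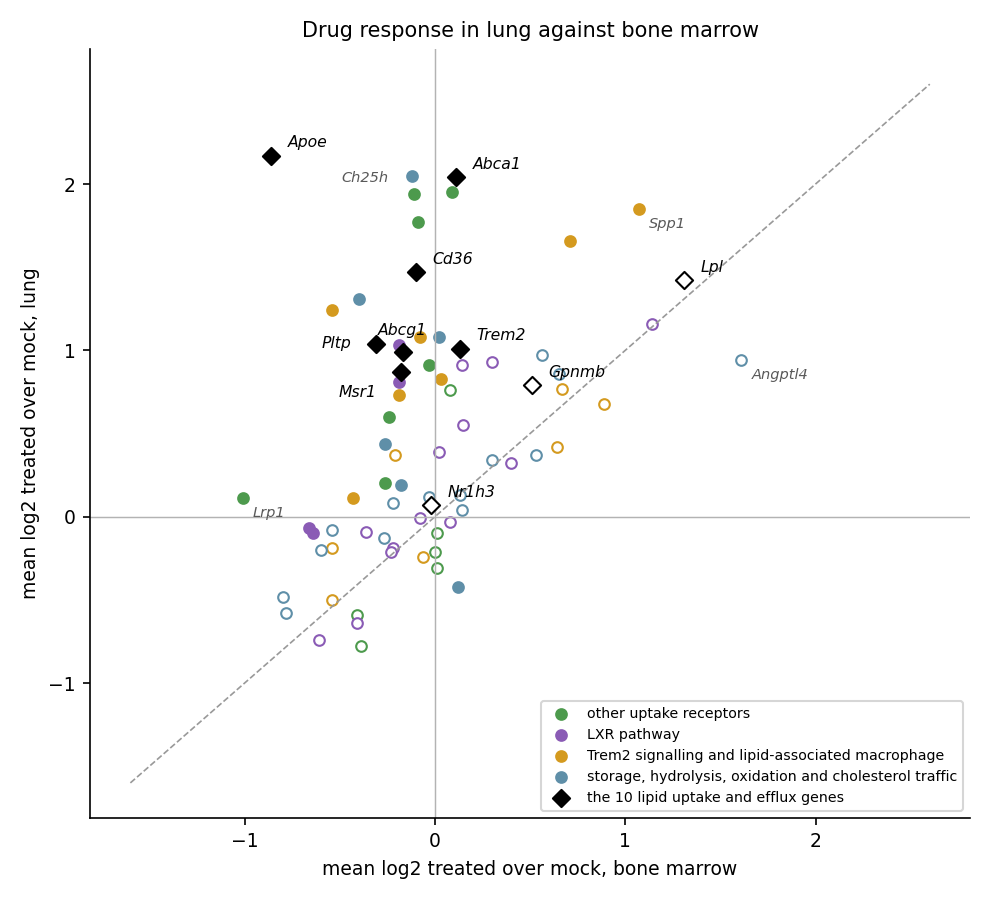
Mean log2 ratio of treated over mock in lung (vertical axis) against bone marrow (horizontal axis) for the 10 genes (black diamonds) and the genes of the 4 pathway lists (circles), filled where the response differed between tissues at an adjusted p below 0.05, with equal response on the dashed line. Apoe stands farthest above the line with 2.17 in lung and -0.86 in bone marrow, and Lpl lies close to it.

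Markers of other cell types were measured beside these results. Of all genes, 20% were called higher and 14% lower in treated lung, and 7.25% and 7.14% in treated bone marrow. The marker lists are short, and none was tested as a set. All 9 tested markers of monocytes and M-MDSCs were well above background in every group, in both dyes. Of these 9, 3 rose and 2 fell in treated lung, and 1 rose and 3 fell in treated bone marrow. In treated lung, 9 of 10 alveolar macrophage markers rose, with a summed level of 103265 to 127176 intensity units in mock lung and 149075 to 283225 in treated lung. Likewise 9 of 10 interstitial macrophage markers rose (19749 to 31851 in mock, 88155 to 113388 in treated lung), as did 6 of 10 markers of lung epithelium (18665 to 33518, then 63292 to 97701) and 8 of 10 of endothelium (12777 to 17168, then 28560 to 35335). The alveolar sum was also 109976 to 136399 in mock bone marrow. Its brightest marker in mock lung was Chil3 (log2 level 16.36), the marker of that list not called in treated lung. In treated lung 5 of 7 neutrophil markers and 2 of 7 adipocyte markers also rose, 2 of 4 platelet markers rose and 1 fell, and all 4 B cell markers and 2 of 6 fibroblast markers fell. In bone marrow no alveolar, adipocyte, fibroblast, B cell, neutrophil or platelet marker was called, 2 interstitial macrophage markers fell, and 1 epithelial and 1 endothelial marker rose. Their part in the rise of the lipid genes was not tested. The median ratio of the alveolar macrophage markers was 2.66, 1.25 and 1.39 on lung replicates 1, 2 and 3. All 10 were highest on replicate 1, where 37.5% of all genes were. The median of the interstitial macrophage markers was 2.85, 2.14 and 1.89, with 8 of 10 highest on replicate 1. Some other lists ranked the lung arrays differently. On replicate 3, 9 of 10 epithelial, 8 of 10 endothelial and 6 of 6 fibroblast markers were highest, and all 7 neutrophil markers were lowest (median -0.15, against 2.31 and 2.22 on replicates 1 and 2). The 4 B cell markers and 4 of 7 neutrophil markers were highest on replicate 1. In mock bone marrow, markers not well above background on any array included the interstitial markers Lyve1, Folr2, C1qa and Mertk. They also included the surfactant genes Sftpa1, Sftpb, Sftpc and Sftpd, the epithelial gene Krt8 and the alveolar macrophage markers Plet1, Fabp1 and Itgax. The endothelial genes Cdh5, Cldn5, Ramp2, Tek and Cav1 were among them too. Marco, Gpihbp1 and Fabp4 stand both in a marker list and in a pathway list.

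The promoter windows of 7 members matched RefSeq's table, as 10 windows of 250 bases before and 50 after a start, while Abcg1, Lpl and Msr1 did not match. Abca1 had 26 CpG in its window, more than 83.1% of 32851 mouse windows, and Cd36 had 3, more than 23.3%. Between them lay Pltp with 13, Apoe with 10 to 12 in 3 windows, Nr1h3 with 8 and 10 in 2 windows, Gpnmb with 9 and Trem2 with 5, against a median of 7 over all windows (quartiles 3 and 20). Searched on both strands, TATAAA was in windows of Abca1, Apoe and Pltp (13.6% of all windows), CCAAT in Cd36, Pltp and Trem2 (37.4%), GGGCGG in Abca1, Cd36 and Pltp (35.7%) and AGGTCA in Cd36 and Trem2 (16.3%). TCATGTG (3.77%) and a repeat of AGGTCA after any 4 bases (0.0152%), which contains AGGTCA, were in none. A looser pair of half-sites, GGTNA and GGTCA with any 5 bases between, chosen after the windows were seen, was in the Abca1 window alone of these and in 0.207% of all windows. It lies on the strand opposite to the gene, from 67 bases before the start, at chr4:53159943-53159967 with 5 flanking bases on each side, here on the gene's strand with the match in capitals.
Abca1 half-sites: gcgttTGACCGGTAGTAACCccggc
A match describes letters in a window and is not evidence of binding.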

How the data were processed

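Spot intensity values in the deposited scanner files come from Agilent Feature Extraction 10.7.3.1, per the file headers, with probes placed on mm9. The deposited matrices hold log2 ratios per spot made by the authors with limma, per the submitters' processing notes. Their values equalled normexp on median signals plus loess as Cy5 over Cy3 (r = 1 over 43173 spots on all arrays, SD of the difference 0.002 to 0.008), and they served as a check.

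Log2 ratios were computed here in limma 3.58.1 (R 4.3.3, statmod 1.5.0) from mean signals: normexp with offset 50, loess within arrays with control spots at weight 0, no scaling between arrays. Outlier spots were dropped, and spots of a probe averaged. Probes well above background on at least 2 arrays of a tissue and dye were kept (27695), and the brightest stood for its gene. Limma fitted all 6 arrays with 1 mean per tissue (4 residual, 3.52 prior degrees of freedom), and mock tissues on Cy3 after Aquantile (3.78 prior). The 4 comparisons were treated against mock in each tissue, their difference, and mock lung against mock bone marrow. Spots well above background made up 49.9% to 62.8% of an array in mock and 55.1% to 69.5% in treated RNA, and 0 were saturated. The number of arrays sets the precision. After correction, negative controls in Cy5 had a median of 240.3 on bone marrow replicate 1, 87 on lung replicate 2 and 13.32 to 15.97 on the others.

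All members are named, and up to 3 genes with the smallest p of each pathway list and comparison among those called, except 1 gene that is not reported here. Members and lists were chosen with earlier results of these data known. The limma fits of the ratios and of the mock levels were tested on simulated data, and the other steps were not. The alternatives were other signals, backgrounds, normalizations, filters and probe rules, fits per tissue, the replicate number as a block, and leaving out each array. Ly6c2 and Ly6g matched no probe name, and Adipoq, Pax5 and Gp1ba did not pass the filter. Exons and UTRs behind the probes were not analysed here.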

Additional observations from a re-analysis of the deposited data

Results flagged for a closer look

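The response to treatment differed between lung and bone marrow, by limma's test of the difference, for 7 of the 10 genes: by a log2 difference (lung minus bone marrow) of 3.04 for Apoe, 1.92 for Abca1, 1.57 for Cd36, 1.35 for Pltp, 1.16 for Abcg1, 1.05 for Msr1 and 0.88 for Trem2. Among the named genes of the pathway lists it also differed for the receptors Cxcl16 (2.05), Stab1 (1.86), Olr1 (1.86) and Lrp1 (1.13), and for the LXR pathway genes Mylip (1.21), Pparg (0.99) and Rxra (0.59). It further differed for Cd63 (1.78), Fabp4 (1.16), Cd9 (0.95), Ctsb (0.92) and Spp1 (0.77), and for Ch25h (2.17), Mgll (1.71) and Gpihbp1 (1.06). In all of them the ratio of treated to mock was higher in lung, with adjusted p from 7.78e-05 to 0.0373. Of all genes tested, 9.78% had a higher ratio in lung by this test. For Rxra and Lrp1 the difference came with a fall in bone marrow and no call in lung.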

How the results depend on the processing

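The count of members called in bone marrow, 1 as reported, was 2 with the processed signals, with the background from negative control spots, with scaling between arrays and with bone marrow fitted alone, and 0 with median centring. Genes called in bone marrow, 3180 as reported, numbered 6458 with processed signals, 6068 with the negative control background and 0 with median centring (3951 at an unadjusted p below 0.05). With median centring 964 genes were called in lung, and 33 genes and 1 member in the difference between tissues; the cause was not tested. Leaving out 1 array gave 0 to 2 members and 995 to 4078 genes in bone marrow, 9 to 9 members and 5144 to 7773 genes in lung, 6 to 7 members and 1504 to 2848 genes in the difference, and 8 to 9 members and 12754 to 14496 genes in mock cells. Genes called in bone marrow numbered 1573, 995 and 1199 when replicate 1, 2 or 3 of bone marrow was left out and 1918 when replicate 2 of lung was, and those in the difference 1968, 1504 and 2239 when replicate 1, 2 or 3 of bone marrow was. Values that changed sign were not called as reported, except Scarb1 in bone marrow (0.09 with median centring). With median centring Abca1 was -0.11, Abcg1 0.21, Msr1 0.17 and Nr1h3 0.12 in bone marrow, and the difference of Lpl was -0.12. Nr1h3 in bone marrow was 0.18 with processed signals, 0.07 with the negative control background, 0.02 with scaling, 0.01 as the mean of its probes and 0.03 without bone marrow replicate 2. Its difference was -0.16 with processed signals, -0.01 with the negative control background and -0.05 without lung replicate 1, with lung values of Nr1h3 from -0.06 to 0.16 when 1 array was left out. The difference of Lpl was -0.10 with processed signals, -0.35 with scaling and from -0.26 to 0.33 when 1 array was left out, and that of Gpnmb was -0.85 with processed signals. Trem2 in bone marrow was -0.02 to 0.39 when 1 array was left out, and in mock cells 0.08 without bone marrow replicate 3, 0.29 with the processed Cy3 signal, 0.03 with quantile normalization and 0.56 with 75th percentile centring. Of 600 values of the members under the alternatives, 545 kept direction and side of the threshold. The replicate numbers were not used as pairs in the main fit. Deviations of same-numbered arrays correlated at 0, 0.12 and 0.05 for ratios and at -0.15, -0.08 and -0.07 for mock levels. These correlations cannot show whether same-numbered samples shared mice. With the number as a replicate block, 2 members were called in bone marrow (Apoe at -0.86 was added, adjusted p = 0.0385), and 2451, 7018, 2859 and 13545 genes in the 4 comparisons. Among the members, signals near background limit the bone marrow ratios of Abca1, Cd36 and Gpnmb. Of the named list genes, Ch25h (6.5), Fabp4 (6.77) and Scd1 (6.33) had mock bone marrow levels near that of Abca1 (6.58). Their bone marrow ratios and mock comparisons carry the same limit.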
